A study of Mus musculus with 12 samples.

Results

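The mouse zinc-finger genes numbered Zfp900 to Zfp999 were followed at their promoters and along their gene bodies in ATAC-seq of embryonic stem cells (ESCs) and mitotic chromosomes. Members were the protein-coding genes of the GENCODE M21 annotation whose symbol is Zfp followed by a 3-digit number that begins with 9 and nothing else, which gave 63 of 21938 protein-coding genes. The numbering is one of nomenclature, and no measured value entered this rule. The set itself was chosen with earlier results of these data known. ATAC-seq marks accessible DNA by the insertion of sequencing adaptors with Tn5 transposase, and here each library was a list of peaks called by the study from fragments shorter than 100 bp.

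The 12 libraries came from 2 ESC lines, wild-type (WT, line WT26) and Suv39h dn (line DN57), which lacks both Suv39h1 and Suv39h2, the enzymes that place histone H3 lysine 9 trimethylation (H3K9me3) at pericentromeric heterochromatin. Asynchronous cells were growing cultures in serum and LIF, and mitotic cells were arrested in metaphase over 6 h in demecolcine (0.1 μg/ml), a microtubule poison, and collected by shake-off. For the chromosome preparation, chromosomes released from such arrested cells in polyamine buffer were stained with a Hoechst dye and chromomycin A3 and purified by flow cytometry. Each of the 6 combinations of genotype and preparation had 2 libraries, and with 1 line per genotype a difference between genotypes and a difference between lines cannot be told apart. The labels do not say whether the 2 libraries of a group were separate cultures, so a p-value measures only the spread between these libraries, which may be technical.

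Zinc-finger proteins of the C2H2 type read DNA through arrays of small finger domains, and many mouse members of the family carry a KRAB domain. KRAB domains bind Trim28 (KAP1), which brings Setdb1, HP1 proteins and other repressors to the bound DNA and leads to H3K9me3, chiefly over transposable elements. The genes lie in clusters made by repeated duplication, and in many cell types the bodies of the genes themselves carry H3K9me3. Neighbouring genes of a cluster can be so alike that short reads cannot be placed in one of them alone.

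Of the 63 genes, 40 lay in 4 clusters, each of at least 4 members with gaps of at most 1 Mb. The chromosome 2 cluster held 10 genes (Zfp931 and Zfp965 to Zfp973) and the chromosome 4 cluster 16 (Zfp933, Zfp978 to Zfp982 and Zfp984 to Zfp993). The chromosome 7 cluster held 4 (Zfp936, Zfp975, Zfp976 and Zfp977) and the chromosome 17 cluster 10 (Zfp942 to Zfp948, Zfp983, Zfp994 and Zfp995). The other 23 genes stood elsewhere, namely Zfp930, Zfp932, Zfp934, Zfp935, Zfp937, Zfp938, Zfp940, Zfp941, Zfp949 to Zfp954, Zfp956 to Zfp961, Zfp963, Zfp964 and Zfp974. In the longest annotated coding sequence, 60 of the 63 genes held at least 1 match to the C2H2 finger pattern, with a median of 11 fingers and a maximum of 21, whereas Zfp935, Zfp957 and Zfp972 held no match.

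How far a peak can be assigned to one gene was measured by counting, for each stretch of 50 bases within 1 kb of a start, its copies in the GRCm38 genome on both strands. At least 90% of these stretches occurred once in the genome for 17 members (Zfp930, Zfp933, Zfp938, Zfp940, Zfp941, Zfp945, Zfp946, Zfp948, Zfp949, Zfp952, Zfp953, Zfp954, Zfp956, Zfp957, Zfp961, Zfp963 and Zfp964), and the other 46 fell below that share. The median share was 0% in the chromosome 2 cluster, 30.0% in the chromosome 4 cluster, 72.7% in the chromosome 7 cluster, 82.4% in the chromosome 17 cluster and 94.4% elsewhere. For the 6 chromosome 2 genes Zfp965 to Zfp969 and Zfp973 under 0.5% of the stretches were unique. The aligner places a read that matches several copies equally well in one of them, and no filter on mapping quality is named, so a peak at such a gene may come from reads of its neighbours.

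Promoter sequences of some of the genes named below are shown first. They are the 250 bases before the RefSeq start (GRCm38.p6), 5′ to 3′ on the strand of the gene, for a gene called in all libraries (Zfp959), genes called in cells and not in chromosomes (Zfp972, Zfp938 and Zfp976) and genes that differed between genotypes in a preparation (Zfp971 and Zfp948). Capitals mark GCCAATCA, which contains the CCAAT box, a common promoter element bound by NF-Y, and the promoter of Zfp948 is shown without it. Among other genes called in all 4 asynchronous and no chromosome library, Zfp935 holds the stretch at its RefSeq start. The listed promoters of Zfp942, Zfp943, Zfp975 and Zfp994, which have the same pattern of calls, lack it, so it is not a trait of all such genes.
Zfp959 (chr17:55891843-55892092, plus strand): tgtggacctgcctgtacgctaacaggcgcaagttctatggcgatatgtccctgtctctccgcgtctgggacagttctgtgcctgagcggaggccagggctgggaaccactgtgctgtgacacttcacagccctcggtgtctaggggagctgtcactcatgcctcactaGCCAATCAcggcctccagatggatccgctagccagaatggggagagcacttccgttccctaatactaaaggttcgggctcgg
Zfp972 (chr2:177925651-177925900, minus strand): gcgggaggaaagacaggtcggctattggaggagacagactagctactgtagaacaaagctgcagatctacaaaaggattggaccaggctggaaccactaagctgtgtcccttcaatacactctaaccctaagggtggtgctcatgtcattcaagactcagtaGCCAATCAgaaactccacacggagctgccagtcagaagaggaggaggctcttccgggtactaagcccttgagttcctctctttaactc
Zfp938 (chr10:82241281-82241530, minus strand): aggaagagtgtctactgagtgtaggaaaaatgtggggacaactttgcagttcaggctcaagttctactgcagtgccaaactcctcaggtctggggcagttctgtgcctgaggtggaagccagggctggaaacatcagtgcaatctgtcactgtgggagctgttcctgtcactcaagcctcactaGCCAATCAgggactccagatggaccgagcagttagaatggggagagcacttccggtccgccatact
Zfp976 (chr7:42642605-42642854, minus strand): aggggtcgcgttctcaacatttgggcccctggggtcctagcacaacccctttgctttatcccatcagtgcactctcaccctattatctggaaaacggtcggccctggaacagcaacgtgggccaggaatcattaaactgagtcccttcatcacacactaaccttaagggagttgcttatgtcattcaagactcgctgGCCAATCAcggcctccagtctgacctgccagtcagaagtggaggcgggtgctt
Zfp971 (chr2:178023034-178023283, plus strand): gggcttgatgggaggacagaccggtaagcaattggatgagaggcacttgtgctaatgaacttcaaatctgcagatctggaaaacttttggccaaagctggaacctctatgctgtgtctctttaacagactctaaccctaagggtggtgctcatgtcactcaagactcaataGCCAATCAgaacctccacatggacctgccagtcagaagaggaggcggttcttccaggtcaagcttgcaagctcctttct
Zfp948 (chr17:21566728-21566977, plus strand): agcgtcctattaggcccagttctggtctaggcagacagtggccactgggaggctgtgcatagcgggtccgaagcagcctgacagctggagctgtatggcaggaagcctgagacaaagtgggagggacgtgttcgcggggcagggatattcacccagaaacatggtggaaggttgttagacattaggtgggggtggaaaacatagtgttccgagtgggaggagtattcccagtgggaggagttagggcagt
The letters GCCAATCA occurred, always in the orientation of the gene, in 20 of the 53 members with a listed RefSeq promoter (250 bases before to 50 after the start). They occurred on either strand in 19 of 247 promoters of genes named Zfp1 to Zfp899 (7.69%) and in 1086 of 27025 promoters of all symbols (4.02%), against 37.7% of the members. In these 20 members the first letter lay between positions -148 and -33 relative to the start, with a median of -65.5. The stretch was chosen after the sequences were seen, it shares 7 letters with CCAATCAG, found in 20 members, 10.1% of the promoters of Zfp1 to Zfp899 and 4.31% of all, and 16 members held both. A match describes the letters and does not show that a factor binds. Of the 20 genes 8 were in the chromosome 2 cluster, 3 in the chromosome 7 cluster and 9 elsewhere, while none was in the chromosome 4 or the chromosome 17 cluster. No promoter was listed for Zfp930, Zfp934, Zfp960, Zfp969, Zfp978, Zfp986 and Zfp989 to Zfp992. Promoters were closely alike for 7 of the 9 genes of the chromosome 2 cluster that had one listed, while Zfp931 and Zfp972 shared 77.3% and 74.3% with their closest member. Of the 7, Zfp966 and Zfp967 were identical over its whole length and Zfp971 and Zfp965 had an identity of 97%. No other member had a partner at 90% identity or more. The ratio of observed to expected CpG had a median of 0.412 in members, 0.661 in Zfp1 to Zfp899 and 0.389 in all promoters.

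A gene was counted as called at its promoter in a library when the summit of a peak, its point of highest pileup, lay within 1 kb of any annotated transcript start. A bulk library does not tell a promoter open in fewer cells from one that is less open in each cell. In asynchronous cells, 34 and 53 of the 63 genes were called in the WT libraries, that is 53.97% and 84.1%, and 38 and 57 in the Suv39h dn libraries, that is 60.3% and 90.5%. All protein-coding genes of the same libraries were called at 31.4%, 52.0%, 31.3% and 55.5%. In mitotic cells 22 and 36 members were called in WT against 8 and 34 in Suv39h dn, or 34.9%, 57.1%, 12.7% and 53.97% beside 16.2%, 24.8%, 3.61% and 29.1% of all genes. In purified chromosomes the order turned round, with 13 and 22 members called in WT against 19 and 15 in Suv39h dn. These were 20.6%, 34.9%, 30.2% and 23.8% of the members beside 37.2%, 50.9%, 42.8% and 42.2% of all genes.

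The share of members therefore lay above that of all genes in each of the 8 libraries from cells and below it in each of the 4 chromosome libraries. The difference was 29.6 ± 5.33 percentage points in asynchronous cells, 21.3 ± 9.84 points in mitotic cells and -15.9 ± 2.39 points in chromosomes (mean ± SD, n = 4 libraries each). The highest chromosome library stood at -12.7 points and the lowest library from cells at 9.09 points, so the ranges did not overlap. The older names Zfp1 to Zfp899, the most similar set of genes with 302 members, lay above all genes in each of the 12 libraries, at 67.1%, 30.3% and 49.3% on average in asynchronous cells, mitotic cells and chromosomes. List lengths ran from 1746 to 80602 peaks, and the first Suv39h dn mitotic library was the shortest, next to 6495 to 14328 peaks in the other mitotic libraries and 44885 to 67027 in chromosomes. When all 12 lists were shortened to 1746 peaks, the members stayed above all genes in the 8 libraries from cells, but fell below them in 2 of the 4 chromosome libraries only. Among the 17 members with mostly unique sequence, the share was above that of all genes in the 8 libraries from cells and below it in 3 of the 4 chromosome libraries, at 70.6%, 39.7% and 36.8% on average in asynchronous cells, mitotic cells and chromosomes.

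**Figure D1:**
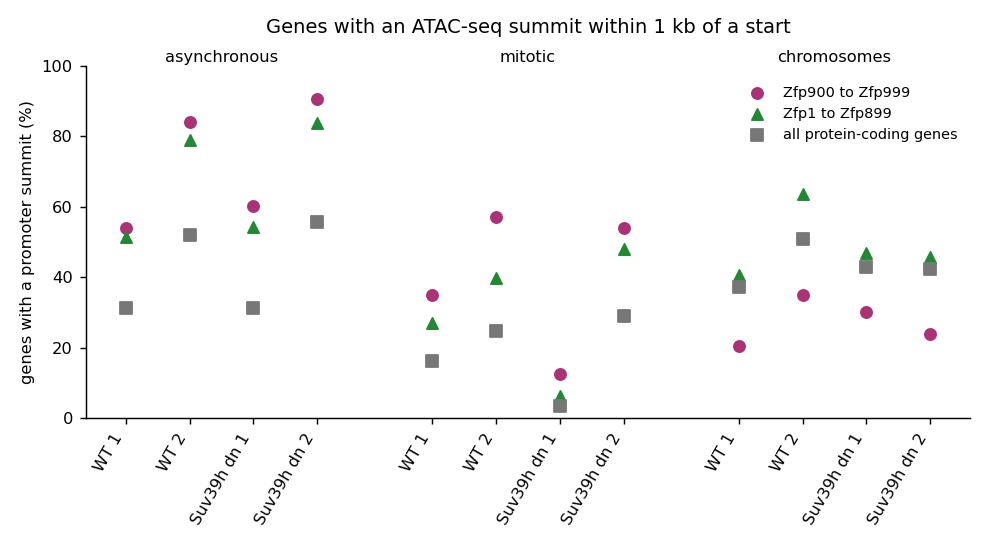
Share of genes with a promoter summit (%, vertical axis) in each of the 12 libraries (horizontal axis, by preparation, genotype and replicate) for the 63 Zfp900 to Zfp999 genes (circles), 302 Zfp1 to Zfp899 genes (triangles) and all 21938 protein-coding genes (squares). The circles lie above the squares in all 8 libraries from cells and below them in all 4 chromosome libraries.

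Within genotypes, the share of members was 44.8 percentage points higher in asynchronous cells than in chromosomes and 32.5 points higher than in mitotic cells, next to a spread between replicate libraries of 18.8 points (pooled SD). Without the short Suv39h dn mitotic library the second value was 22.2 points. With all lists at 1746 peaks both values were smaller, at 21.03 and 6.35 points. Gene by gene, 48 of the 63 members (76.2%) were called in more asynchronous than chromosome libraries, 12 in as many and 3 in fewer, beside 27.7% and 30.4% of all protein-coding genes called in more and in fewer. The 3 exceptions were Zfp941, Zfp974 and Zfp979.

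A promoter peak in all 4 asynchronous and none of the 4 chromosome libraries was found for 10 members, or 15.9%, beside 2.33% of all protein-coding genes and 6.29% of the genes Zfp1 to Zfp899. The 10 were Zfp934, Zfp935, Zfp938, Zfp942, Zfp943, Zfp969, Zfp972, Zfp975, Zfp976 and Zfp994. They do not stand for 10 separate peaks, since Zfp942 and Zfp943 start head to head at a shared peak, and the overlapping genes Zfp934 and Zfp935 share one as well. Only Zfp938 among them had a promoter that was unique by the measure above. The opposite pattern, all 4 chromosome and no asynchronous library, was found for no member and for 2.18% of all genes, in a count without a test. In chromosomes 28 members (44.4%) had no promoter peak in any library, beside 34.9% of all genes, and 5 members (7.94%) had one in all 4, beside 21.1%. In asynchronous cells 29 members (46.0%) were called in all 4 libraries, beside 22.3%, and 6 (9.52%) in none, beside 39.1%. In mitotic cells Zfp932, Zfp959, Zfp960 and Zfp972 were called in all 4 libraries (6.35%, beside 2.10%) and 19 members in none (30.2%, beside 63.0%).

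Zfp972 in the chromosome 2 cluster was the 1 member called in all 8 libraries from cells and in no chromosome library, a pattern shown by 0.119% of all genes. It was also the 1 member called in all 4 mitotic and no chromosome library, beside 0.123% of all genes, and no member was called in all 4 chromosome and no mitotic library, beside 7.78%. The fold enrichment of its summit over the local background, as given by the peak caller of the study, was 8.94 and 21.6 in WT, against 10.1 and 20.5 in Suv39h dn in asynchronous cells. In mitotic cells it was 6.49 and 11.48 in WT, against 5.66 and 8.56 in Suv39h dn. In each line the longer asynchronous list gave the higher value, and the ranges of the 2 lines overlapped. Unique stretches made up 28.4% of this promoter.

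Zfp938, on chromosome 10, is the case in which the sequence is nearly all unique (99.9%). Its fold was 6.04 and 8.10 in WT, against 7.68 and 12.99 in Suv39h dn in asynchronous cells, and in mitotic cells the second Suv39h dn library alone gave a peak, at 5.52. Zfp976 and Zfp975, neighbours in the chromosome 7 cluster, were likewise called in cells and not in chromosomes. For Zfp976 the fold was 10.8 and 13.8 in WT, against 7.84 and 18.1 in Suv39h dn in asynchronous cells. In mitotic cells it was 8.94 in the second library alone in WT, against 5.98 in the second library alone in Suv39h dn. For Zfp975 the mitotic values were 6.18 and 6.08 in WT, against 9.38 in the second library alone in Suv39h dn. Zfp969 was called in all 4 asynchronous libraries and in no other, and none of its stretches was unique. Calls in all 4 asynchronous and no mitotic library were made for this member alone (1.59%), beside 2.07% of all genes.

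At least 10 of the 12 libraries had a promoter peak for 10 members (15.9%), beside 10.0% of all genes: Zfp930, Zfp932, Zfp941, Zfp944, Zfp956, Zfp958, Zfp959, Zfp960, Zfp963 and Zfp981. Zfp959 on chromosome 17, outside the cluster there, was the 1 member called in all 12, as were 1.10% of all genes. Its fold was 12.3 and 20.98 in WT, against 14.3 and 23.8 in Suv39h dn in asynchronous cells. The mitotic values were 8.08 and 9.003 in WT, against 8.62 and 10.3 in Suv39h dn, and the chromosome values were 5.55 and 10.1 in WT, against 4.17 and 8.73 in Suv39h dn. The peak was thus present throughout, with its highest values in the second asynchronous libraries. Zfp944 had the highest or equal highest member fold in each chromosome library, at 11.2 and 10.2 in WT, against 6.68 and 9.09 in Suv39h dn, next to 7.16 and 10.6 in WT, against 5.62 and 9.69 in Suv39h dn in asynchronous cells. Here the preparations overlapped. No promoter peak was found in any library for 4 members (6.35%, beside 25.4% of all genes), Zfp957, Zfp986, Zfp987 and Zfp992, each of which had a peak in its gene body in at least 1 library.

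Where members were called, the rank of their peaks by fold within the list was set beside that of the promoter peaks of all protein-coding genes, as a description over the genes called in each library. The median member fold was 7.30, 12.7, 7.30 and 13.0 in the asynchronous libraries (WT, then Suv39h dn), at percentiles 84.1, 94.9, 86.3 and 94.3 of the whole list, and the median promoter peak of all genes stood at 68.8, 73.2, 69.3 and 74.2. In mitotic cells the medians were 5.72, 6.57, 4.91 and 6.75, at percentiles 56.5, 73.5, 31.3 and 73.9, beside 58.6, 63.3, 47.6 and 64.3 for all genes. In chromosomes the medians were 4.96, 5.56, 4.17 and 5.89, at percentiles 67.9, 75.2, 41.4 and 78.5, beside 67.5, 73.3, 68.2 and 66.8. The members' median thus lay above that of all genes in all 4 asynchronous libraries, by 15.3 to 21.7 percentiles, and on both sides of it in mitotic cells and chromosomes. The genes Zfp1 to Zfp899 stood at percentiles 68.0, 79.9, 73.7 and 81.0 in the asynchronous libraries. This was below all genes in the first WT library and above them in the others, and below the members in each. Folds of lists of different depth are not on one scale, which is why the percentile within the list is given.

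**Figure D2:**
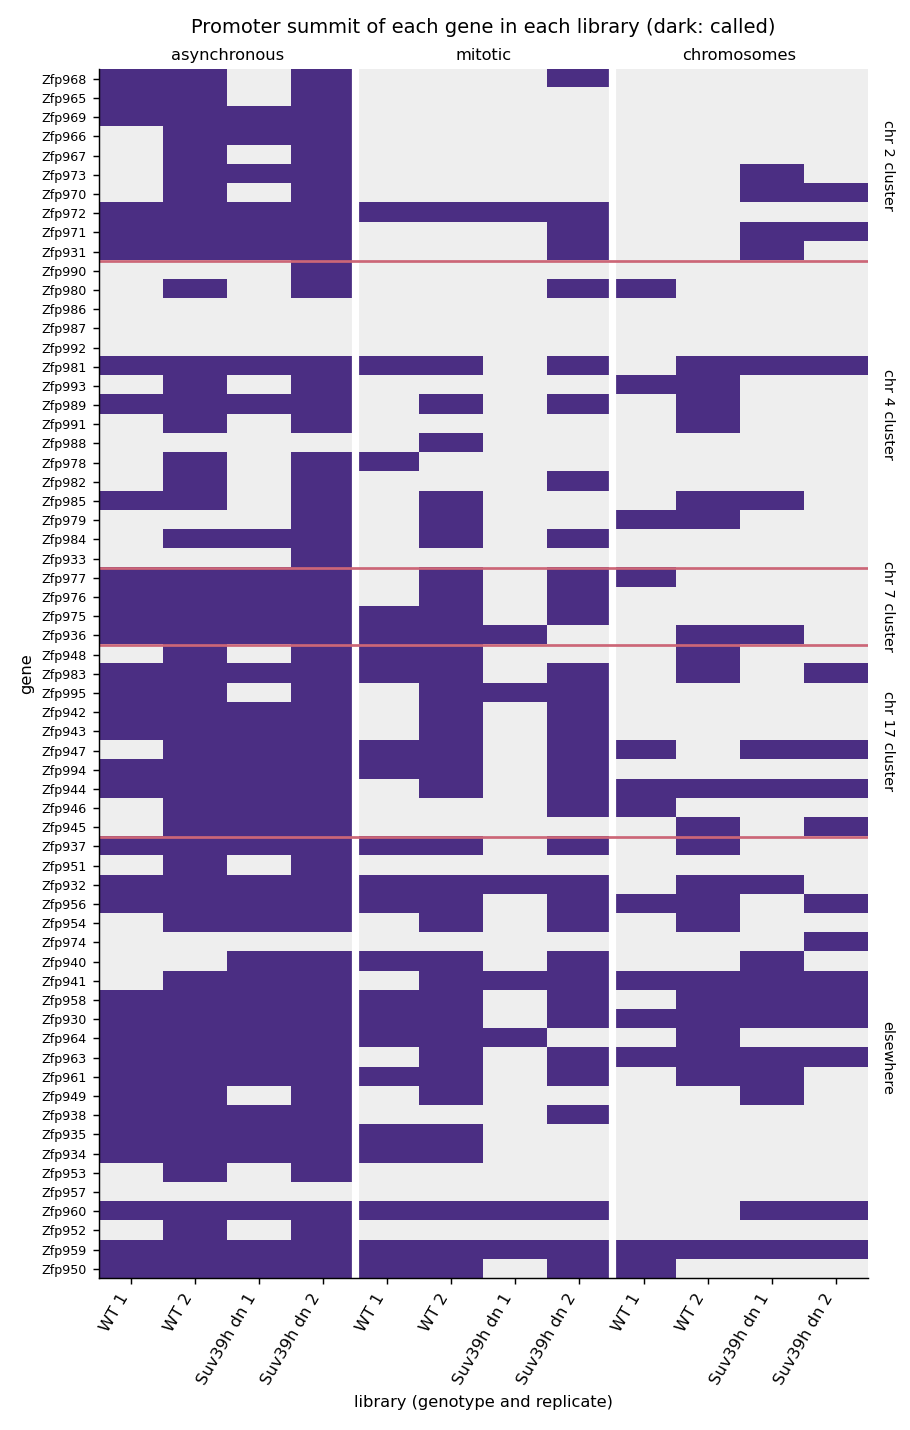
Promoter calls of the 63 genes (vertical axis, by cluster and position) in the 12 libraries (horizontal axis, by preparation, genotype and replicate), dark where a summit lay within 1 kb of a start. Most of the asynchronous columns are filled, with 29 genes called in all 4, whereas 28 genes are empty in all 4 chromosome columns.

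The clusters differed in how often their promoters were called. Over the 4 asynchronous libraries, 16 of 16 possible calls were made in the chromosome 7 cluster (100%), 34 of 40 in the chromosome 17 cluster (85%), 32 of 40 in the chromosome 2 cluster (80%) and 27 of 64 in the chromosome 4 cluster (42.2%), beside 73 of 92 elsewhere (79.3%). In mitotic cells the chromosome 2 cluster had 7 of 40 calls (17.5%), of which 4 were those of Zfp972, while the chromosome 7 and chromosome 17 clusters had 62.5% and 52.5%. In chromosomes the shares were 15%, 18.8%, 18.8% and 32.5% in the clusters on chromosomes 2, 4, 7 and 17 and 38.04% elsewhere. The chromosome 4 cluster changed least in percentage points between preparations, at 20.3% in mitotic cells. Genes of a cluster share sequence and are not independent, and the cluster with the fewest unique stretches also had the largest drop from asynchronous to mitotic cells, a relation whose part in the result was not tested.

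**Figure D3:**
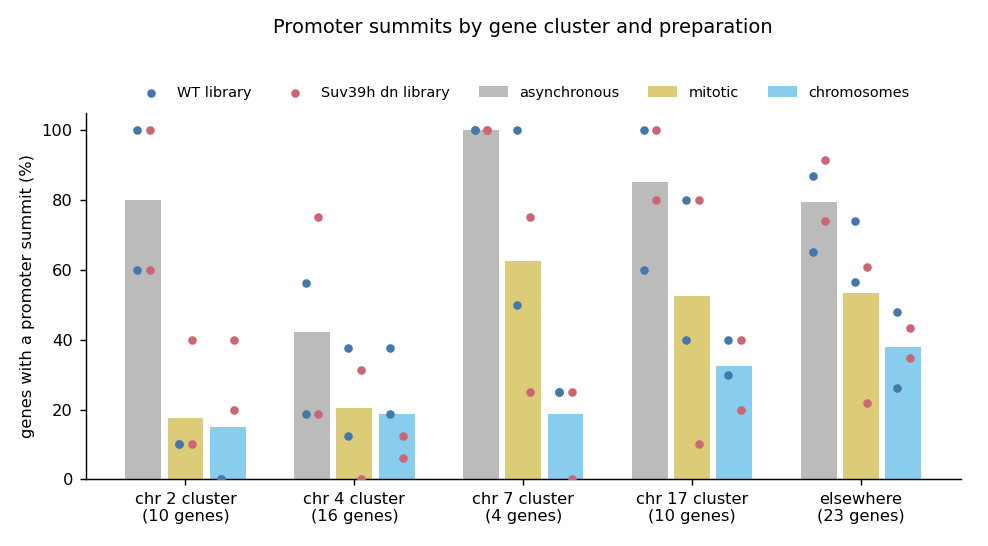
Mean share of genes with a promoter summit (%, vertical axis) by cluster (horizontal axis) and preparation (bars), with each library as a point by genotype. All 4 genes of the chromosome 7 cluster are called in all 4 asynchronous libraries, and the chromosome 4 cluster is the lowest in asynchronous cells at 42.2%.

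Members with the GCCAATCA stretch were called in 72 of 80 gene and library pairs in asynchronous cells (90%), and those with a RefSeq promoter that lacked it in 85 of 132 (64.4%). The stretch was read at RefSeq starts and the calls were made at GENCODE starts. These are different places for some members, such as Zfp935, which holds it, and Zfp982 and Zfp993, which lack it. The shares were 47.5% and 37.9% in mitotic cells and 30% and 28.03% in chromosomes. The stretch was thus more frequent among the genes called in asynchronous cells, and the shares in chromosomes were close to each other. The 2 sets also differ in their clusters, since 10 of the 33 genes without it belong to the chromosome 4 cluster. Of the 4 members called in all 8 libraries from cells, Zfp932, Zfp959 and Zfp972 hold it and Zfp960 has no listed promoter. Zfp965 and Zfp967 hold it too and were called in 3 and in 2 asynchronous libraries and nowhere else.

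The position of the summit also differed between preparations. In asynchronous cells 165 of 182 member summits lay upstream of the nearest start, at a median of -48 bp, and 95.6% lay within 250 bp. In mitotic cells 84 of 100 lay upstream, at a median of -39 bp. In chromosomes 26 of 69 lay upstream, the median was 59 bp into the gene and 76.8% lay within 250 bp. All protein-coding genes showed a like shift. Among genes called both in cells and in chromosomes, the median position moved from -38 to 53.5 bp for 34 members and from -45 to 29 bp for 11429 protein-coding genes, and the chromosome position lay farther downstream in 67.6% and 68.6% of them.

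**Figure D4:**
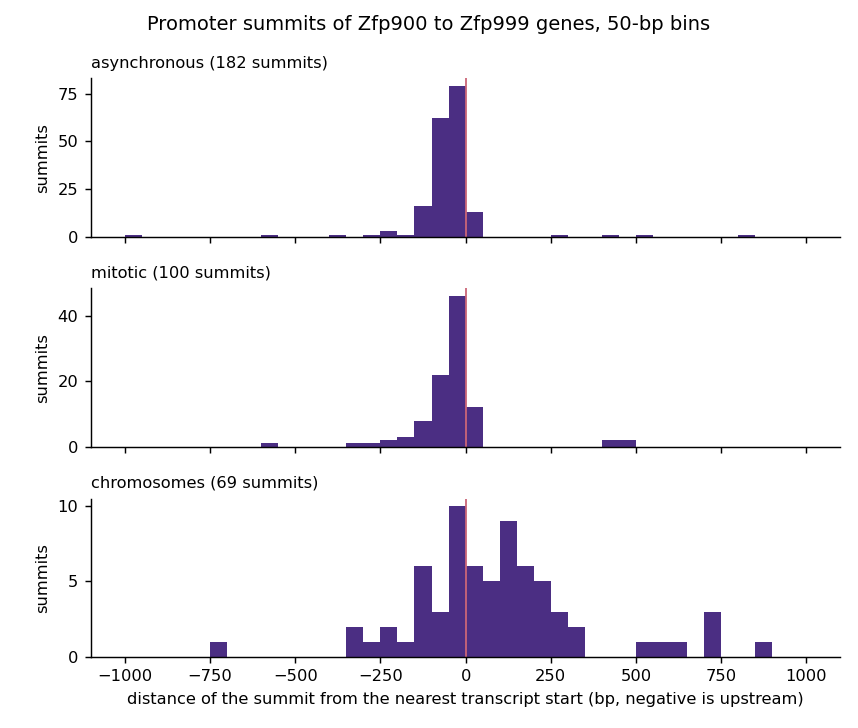
Number of promoter summits (vertical axis, 50-bp bins) by distance from the nearest transcript start (bp, negative upstream) in asynchronous cells, mitotic cells and chromosomes. The medians are -48 bp, -39 bp and 59 bp.

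Between Suv39h dn and WT, the share of members called differed by less than the spread between libraries. Averaged over preparations, the share called in Suv39h dn minus that in WT was -2.38 percentage points, next to a pooled SD of 18.8 points. Without the short Suv39h dn mitotic library the difference was 4.50 points. Relative to all protein-coding genes the difference was -1.07 points with a pooled SD of 7.04. In an exact two-sided permutation test per gene, genotypes were permuted within preparations (216 arrangements, smallest possible p of 0.00926). By this test 0 of 63 members and 0 of 21938 genes (0%) had an unadjusted p under 0.05. None passed after Benjamini-Hochberg adjustment. Over so many genes the adjustment could pass a gene only if very many reached the smallest p, so that outcome was largely fixed by the design. The smallest p of this exact test among members was 0.167, that of Zfp971, called in 2 WT and 5 Suv39h dn libraries. At the other end Zfp948 was called in 4 WT and 1 Suv39h dn library (exact p = 0.278), and the smallest exact p of any gene was 0.0556. Between genotypes 17 members were called more often in Suv39h dn, 23 more often in WT and 23 equally, beside 22.6% and 28.1% of all genes called more often in Suv39h dn and in WT.

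Within a preparation, 2 libraries against 2 cannot give an exact p below 0.333, so members called in both libraries of one genotype and neither of the other are given as a description. In asynchronous cells Zfp940 was called in both Suv39h dn and neither WT library, at 5.07 and 5.37 (1.59% of the members, beside 0.784% of all genes), and no member showed the reverse (0.479% of all genes). In mitotic cells Zfp940 was called in both WT libraries, at 3.97 and 5.49, and in 1 Suv39h dn library, at 6.59, so the asynchronous pattern did not recur there.

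In mitotic cells Zfp934, Zfp935 and Zfp948 were called in both WT and neither Suv39h dn library (4.76%, beside 1.02% of all genes), and no member showed the reverse (0.251%). Zfp934 and Zfp935 share a peak, so they do not count as separate places in the genome. At Zfp948, in the chromosome 17 cluster and with unique sequence throughout, the fold was 5.68 and 6.69 in WT mitotic cells. The summits lay at -35 bp in the first and -597 bp in the second of these libraries, so no single peak recurred in both. In asynchronous cells the second library of each line alone was called at Zfp948, at 8.43 in WT and 10.6 in Suv39h dn. The absence from the first Suv39h dn mitotic library rests on a list of 1746 peaks, and the second list, of 14328 peaks, lacked these genes too.

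In chromosomes Zfp960, Zfp970 and Zfp971 were called in both Suv39h dn and neither WT library (4.76%, beside 1.64% of all genes), and Zfp979 and Zfp993 in both WT and neither Suv39h dn library (3.17%, beside 2.43%). Zfp970 and Zfp971, both in the chromosome 2 cluster, had folds of 5.01 and 4.73 and of 4.17 and 5.52 in the Suv39h dn chromosomes. Zfp972, called in no chromosome library, lies between them. All 6 chromosome calls of the chromosome 2 cluster were in Suv39h dn libraries, 4 in the first and 2 in the second, and none in the WT libraries. In the chromosome 4 cluster the counts went the other way, with 9 chromosome calls in WT and 3 in Suv39h dn, and elsewhere they were 17 and 18. These are counts without a test, beside 37.2% and 50.9% of all genes called in WT and 42.8% and 42.2% in Suv39h dn chromosomes. Only 22.3% and 40.4% of the stretches at Zfp970 and Zfp971 were unique. Zfp960, elsewhere on chromosome 17, had 5.67 and 6.99 in Suv39h dn chromosomes and the highest member fold in both lines in asynchronous cells, at 16.6 and 22.6 in WT, against 15.6 and 27.5 in Suv39h dn.

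Peaks in the gene body, more than 1 kb from every start of the gene, were found for 40 of the 63 members, at 177 separate sites. Of these sites 93 were called in a single library and 27 (15.3%) in at least 4 libraries, beside 7.15% of 83252 such sites in all protein-coding genes. The chromosome 4 cluster held 20 of the 27. Of the 27 sites 20 were called in cells alone (74.1%), beside 55.6% of the sites in at least 4 libraries over all protein-coding genes. Another 4 were called in chromosomes alone (14.8%, beside 13.6%) and 3 in both. Recurrent sites called in cells alone were thus 20 of all 177 member body sites, beside 3311 of 83252 body sites in all genes (3.98%). Shares over all body sites also carry the more frequent recurrence of member sites. Sites called in all 4 asynchronous and in no chromosome library numbered 13 of 177 (7.34%), beside 2.46% over all genes, and sites called in all 4 chromosome libraries and no library from cells 4 of 177 (2.26%), beside 0.972%. Per 1000 peaks of a list, members had 1.05 ± 0.138 body summits in asynchronous cells, 1.48 ± 0.564 in mitotic cells and 0.676 ± 0.0678 in chromosomes (mean ± SD, n = 4 libraries each). Body summits of all protein-coding genes, counted the same way, were 316.2 ± 19.0, 225.8 ± 19.3 and 338.9 ± 5.62 per 1000 peaks, so the members held 0.334%, 0.655% and 0.199% of them. The mitotic mean leans on the list of 1746 peaks, with 4 summits or 2.29 per 1000, and without it was 1.21 ± 0.191 (n = 3), or 0.531% of those of all genes. The difference between Suv39h dn and WT was 0.06 on the log2 scale, against a pooled SD of 0.36.

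In the chromosome 4 cluster, 9 of the recurrent sites, each in a different gene, carried the same sequence in an intron. The 9 genes were Zfp978, Zfp979, Zfp980 and Zfp985 to Zfp990, and the sites lay between 1169 and 6021 bp from the annotated 5′ end. The middle of none of these sites lay in an annotated exon. The longest stretch common to the 9 windows of 151 bases had 21 bases, and over the parts of the windows that could be aligned around it, of 68 to 151 bases, the 36 pairs were between 90% and 100% alike (median 95.7%). Between 0% and 29.1% of a window was soft-masked as repeat in the reference. The windows of 4 genes are shown, chosen to span the most unique sites (Zfp990 and Zfp985), a site with no unique stretch (Zfp979) and the site closest to a 5′ end (Zfp986), on GRCm38, 5′ to 3′ on the strand of the gene, with the shared 21 bases in capitals.
Zfp990 (chr4:145515916-145516066, plus strand): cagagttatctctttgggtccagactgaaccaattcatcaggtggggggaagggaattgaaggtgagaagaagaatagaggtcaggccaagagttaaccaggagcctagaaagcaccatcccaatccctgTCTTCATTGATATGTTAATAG
Zfp985 (chr4:147558197-147558347, plus strand): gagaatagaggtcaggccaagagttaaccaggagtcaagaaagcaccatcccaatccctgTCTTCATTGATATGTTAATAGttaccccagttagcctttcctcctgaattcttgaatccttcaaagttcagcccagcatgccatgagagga
Zfp979 (chr4:147637996-147638146, minus strand): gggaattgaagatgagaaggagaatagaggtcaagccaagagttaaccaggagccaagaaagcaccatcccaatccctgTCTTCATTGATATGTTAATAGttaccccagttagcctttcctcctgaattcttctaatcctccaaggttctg
Zfp986 (chr4:145869888-145870038, plus strand): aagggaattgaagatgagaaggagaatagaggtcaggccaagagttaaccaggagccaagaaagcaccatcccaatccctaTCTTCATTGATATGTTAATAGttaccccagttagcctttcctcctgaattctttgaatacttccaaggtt

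A search of the whole GRCm38 genome on both strands found the 21 bases 14 times, 13 of them between positions 145357634 and 147697333 of chromosome 4 and 1 on an unplaced sequence. Of the 13, 9 lay in the genes named above, 1 each in Zfp600, Gm21411 and Zfp534, and 1 outside protein-coding genes. A summit within 150 bp was called in at least 1 library from cells at 12 of the 13 copies on chromosome 4, and in no chromosome library at any of these. The copies of Zfp600, Gm21411 and Zfp534 among them were not used to find the sequence. The other 9 were sites already called in at least 4 libraries when it was found, so their being called follows from that choice. By library, 11 and 12 copies were called in WT asynchronous cells, 10 and 12 in Suv39h dn asynchronous cells, 5 and 10 in WT mitotic cells and 2 and 9 in Suv39h dn mitotic cells. With all 12 lists at 1746 peaks, 10 copies were still called in cells and none in chromosomes.

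At Zfp990, where 86.2% of the stretches of 50 bases were unique, the fold in asynchronous cells was 15.4 in the second library alone in WT, against 7.96 and 15.9 in Suv39h dn, and 1 WT mitotic library gave a peak at 5.64. At Zfp985, with 76.3% unique, it was 4.99 and 10.5 in WT, against 10.96 in the second library alone in Suv39h dn. At Zfp979, with no unique stretch, it was 8.28 and 17.05 in WT, against 7.64 and 14.9 in Suv39h dn. No order of the lines recurred over these copies. At the copies with few unique stretches, how many of the copies were accessible cannot be told apart from how reads of one copy were shared out among them. The copy outside protein-coding genes had no peak in any library. The copy on the unplaced sequence could not be looked up in the peak lists, which name such sequences otherwise, so nothing is said of it.

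**Figure D5:**
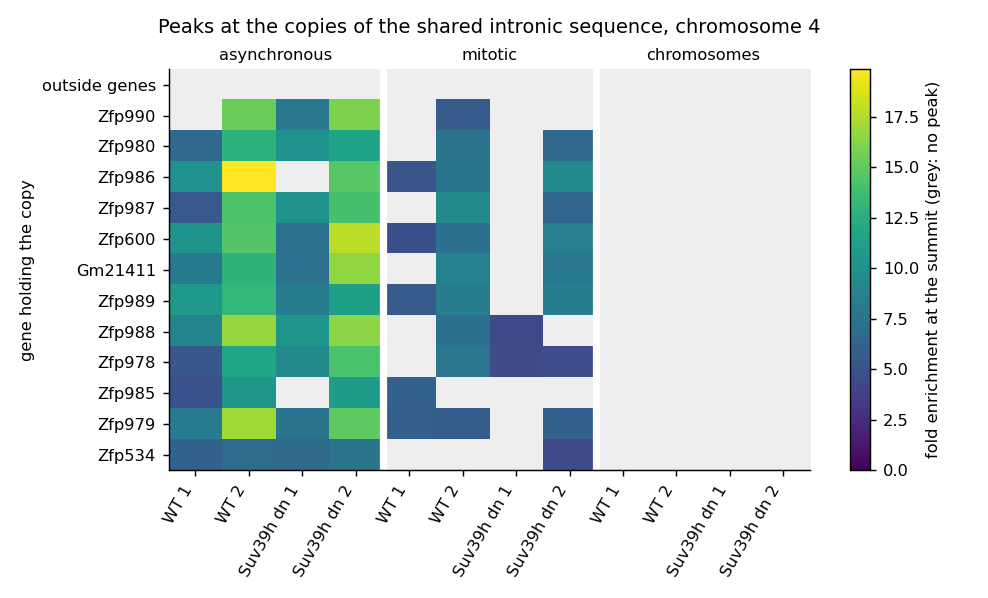
Fold enrichment at the summit (colour, grey where no peak was called within 150 bp) at the 13 copies of the shared sequence on chromosome 4 (vertical axis, by the gene that holds the copy, in genome order) in the 12 libraries (horizontal axis). Peaks appear at 12 copies in asynchronous and mitotic cells and at none in the 4 chromosome libraries.

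The same cluster also held the 4 sites called in all 4 chromosome libraries and in no library from cells, of which 2 were in Zfp992, 1 in Zfp978 and 1 in Zfp985. The sites of Zfp992, intronic and 6247 and 8895 bp from the 5′ end, held only unique stretches within 100 bp of their middle (100%). At the first, chr4:146455090-146455369, the fold was 5.12 and 4.69 in WT against 5.97 and 6.76 in Suv39h dn chromosomes. At the second, chr4:146457753-146458087, it was 7.56 and 7.24 in WT against 6.78 and 6.01 in Suv39h dn chromosomes. The Suv39h dn values were the higher at the first site and the lower at the second, with 2 libraries a group and no test. The 151 bases around the middle of each are shown on the strand of the gene, in this order, since no other recurrent site was both unique and confined to the chromosome libraries.
Zfp992: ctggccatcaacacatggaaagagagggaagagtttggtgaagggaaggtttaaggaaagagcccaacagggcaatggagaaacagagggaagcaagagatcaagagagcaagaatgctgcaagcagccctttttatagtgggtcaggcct
Zfp992: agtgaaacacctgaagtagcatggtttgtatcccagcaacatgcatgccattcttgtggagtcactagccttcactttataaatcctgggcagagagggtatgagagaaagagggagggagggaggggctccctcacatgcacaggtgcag
Neither holds the 21 bases of the intronic sites above. Zfp978 and Zfp985 thus had a site called only in cells, 4438 and 4995 bp from the 5′ end, and another called only in chromosomes, 21561 and 12611 bp from it.

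The 8 members with a body peak in the most libraries were Zfp978 and Zfp979 (11 each), Zfp980 (10), Zfp936 and Zfp985 (9 each) and Zfp935, Zfp943 and Zfp991 (8 each). Of these 5 belong to the chromosome 4 cluster. The most recurrent site in the body of Zfp935, chr13:62466791-62466934, was called in all 4 asynchronous and 3 mitotic libraries at folds between 6.34 and 17.99, and lay 65 bp from the start that RefSeq gives for Zfp935 and 91634 bp from its 5′ end in GENCODE. It also lay in an exon of Gm22256 in GENCODE, 12 bp from the start of that gene, so the peak cannot be assigned to Zfp935 alone. That sequence was unique (100%), and the RefSeq promoter there holds the GCCAATCA stretch. Zfp948 had a unique intronic site, chr17:21579638-21579758, in all 4 asynchronous and 2 mitotic libraries, at 4.35 and 10.7 in WT against 5.12 and 17.2 in Suv39h dn asynchronous cells. Only 2 of the 27 recurrent sites lay within 1 kb of a RefSeq start, the other being in Zfp973, near the start of Gm14305.

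A list of genes of KRAB repression and of repressive chromatin more broadly is given beside the members, without a test. It also holds Suv39h1, Suv39h2, Ehmt1, Ehmt2 and Dnmt1, and the histone demethylases Kdm4a, Kdm4b and Kdm4c, so not every gene on it serves KRAB repression. Of its 22 genes, 14 and 19 were called in WT against 11 and 17 in Suv39h dn asynchronous cells. The numbers were 6 and 12 against 2 and 14 in mitotic cells and 12 and 18 against 17 and 17 in chromosomes, in the same order of genotypes. The chromosome counts are 54.5%, 81.8%, 77.3% and 77.3% of the list, beside 37.2%, 50.9%, 42.8% and 42.2% of all genes, which lay above the members there. Trim28, the corepressor that KRAB domains bind, was called in 4 asynchronous, 2 mitotic and 3 chromosome libraries, and Setdb1, which trimethylates H3K9 at its targets, in 3, 1 and 3. Mphosph8, a subunit of the HUSH silencing complex, was called in all 12. The start of Suv39h1 was called in 2 WT and no Suv39h dn library and that of Suv39h2 in 4 WT and 2 Suv39h dn libraries. Whether these starts lie in the deleted parts is not given in the sources used here, so they check nothing about the labels. Of 10 ESC markers, 4 to 8 were called in the asynchronous libraries. Sox2, Esrrb, Zfp42 and Sall4 were called in all 4, Pou5f1 and Dppa5a in 3, Nanog and Lin28a in 2, and Klf4 and Tdgf1 in none. Klf4 was called in all 4 chromosome libraries. Of 12 markers of other cell types, 2 to 8 were called in the asynchronous libraries, with Pax6 in all 4 and Sox17 and Cd34 in 3. In mitotic cells 0 to 5 ESC markers and 0 to 3 of the others were called, and in chromosomes 4 to 6 and 2 to 7. Of the fibroblast markers, Col1a1, Col3a1 and Thy1 had no promoter peak in any library, and Col1a2 had one in 2 asynchronous, no mitotic and all 4 chromosome libraries. An open promoter is thus a weak check of the cell type.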

How the data were processed

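ATAC-seq peak lists of 12 libraries were used, 2 for each of 2 genotypes in 3 preparations. Per the labels and the methods of the study, reads were demultiplexed with bcl2fastq 2.20.0, trimmed with Trim Galore 0.4.4 and aligned to mm10 with Bowtie2 2.2.9. SAMtools 1.2 sorted the alignments, Picard marked duplicates, ATACseqQC kept proper pairs and took out duplicates and mitochondrial reads, and deepTools shifted the reads for the Tn5 offset and kept fragments under 100 bp. The authors called peaks with MACS2 in each library on its own, without pooling, and removed ENCODE blacklisted regions. Each deposited list gives the fold enrichment at the summit and the −log10 p-value and −log10 q-value of the peak. Every peak had a q-value under 0.05. Read depth is not part of a peak list, so the number of peaks stands in for it, and no counting interval was given.

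Summits were assigned to GENCODE M21 genes on GRCm38 (mm10) with Python 3.11.15, numpy 2.4.6, pandas 2.3.3 and numba 0.67.0. Sequences were compared with edlib 1.3.9.post1 and plotted with matplotlib 3.10.9. Since no counts were used here, a gene was called or not called in a library, and genotypes were compared with an exact two-sided permutation test per gene within preparations, adjusted by Benjamini-Hochberg over 21938 genes. The test was tested on simulated data, in which the planted genes were called in every Suv39h dn and no WT library. Shares of members carry a mean, an SD and no p.

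Genes named in the text were those called at the promoter in at least 10 of 12 libraries, in both libraries of one genotype and neither of the other, or in all 4 libraries of a preparation and none of another, those with an exact p under 0.05, the 8 with a body peak in the most libraries, and, by name, those with under 90% unique stretches, given as the 46 that remain besides the 17 listed. Members without any summit were to be named too, and there were 0. Members in which recurrent body sites were found were named after their values were seen. Members, lists and tests were chosen with earlier results of these data known. Alternatives were a q-value of 1e-05, lists of equal length, windows of 500 bp and 2 kb, the 5′ end alone, overlap in place of the summit, members with unique sequence, a replicate block and leaving out each library.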

Additional observations from a re-analysis of the deposited data

Results flagged for a closer look

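The members stood above all protein-coding genes in each library from cells and below them in each chromosome library, so that every library of one preparation moved one way and every library of the other the opposite way. The mean difference was 29.6 percentage points in asynchronous cells against -15.9 points in chromosomes. It was 21.3 points in mitotic cells against the same -15.9 points in chromosomes. The differences between preparations were not tested, because the members are a chosen list. The lists differed in length between preparations. With all 12 shortened to 1746 peaks, the members stayed above all genes in the 8 libraries from cells and were below them in 2 of the 4 chromosome libraries. The difference relative to all genes was then 18.8 points between asynchronous cells and chromosomes, in place of 45.6, and 11.97 points between mitotic cells and chromosomes, in place of 37.2.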

How the results depend on the processing

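Over 11 results and their alternatives, 201 of 212 values stayed within the spread between replicates (counts within 1.5 times) and 11 moved by more. No result larger than that spread changed direction, whereas the genotype differences, which were smaller than it, changed sign in some alternatives. Of the 212, 114 were planned and 98 were chosen after seeing the data. With all 12 lists shortened to 1746 peaks, asynchronous minus mitotic was 6.35 percentage points and asynchronous minus chromosomes 21.03 points. Relative to all genes, asynchronous minus chromosomes was 45.6 points, and 35.6 at a q-value of 1e-05, 34.5 for members with unique sequence and 18.8 at 1746 peaks. Mitotic minus chromosomes was 37.2 points, and 15.8 at a q-value of 1e-05, 26.6 with the lists of a preparation at equal length, 27.8 for members with unique sequence and 11.97 at 1746 peaks. The 10 members called in all asynchronous and no chromosome libraries were 1 (Zfp938) among the 17 with unique sequence and 6 at 1746 peaks. The cause was not tested.

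Leaving out 1 library in turn gave -9.26 to 4.50 points for Suv39h dn minus WT and -3.70 to 1.56 relative to all genes. Asynchronous minus mitotic ran from 22.2 to 42.9 and asynchronous minus chromosomes from 37.3 to 52.4 points, or from 43.2 to 48.0 relative to all genes, and mitotic minus chromosomes relative to all genes from 33.2 to 41.1. Body summits ran from -0.11 to 0.23 (log2), the 10 members from 10 to 13, copies called in cells stayed at 12 and copies called in chromosomes at 0. Without the first Suv39h dn mitotic library, of 1746 peaks, the genotype differences were 4.50 points, 1.56 points and -0.11 (log2), each of the opposite sign. Members past an exact p of 0.05 numbered 0 in each alternative, with 0 to 15 of all genes.

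With replicate numbers as a replicate block, 0 members had an exact permutation p under 0.05 (64 arrangements, smallest exact p of a member 0.25). Same-numbered libraries correlated at 0.279, 0.149 and 0.0229 in their deviations in asynchronous cells, mitotic cells and chromosomes, so the numbers were not taken as pairs. Body summits of members with unique sequence gave no value, since at least 1 library held none. The length of the lists limits what an absent call can show.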
